A study of Mus musculus with 10 samples.

Results

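Iron-sulfur cluster assembly and iron handling were followed in interscapular brown fat (iBAT) through 9 genes, found by symbol among the 15075 genes of the expression table. They are Nfs1, Iscu, Isca1, Isca2, Glrx5 and Hscb of the mitochondrial assembly machinery, and Tfrc, Fth1 and Slc40a1 of iron uptake, storage and export. All 9 were in the table, and all 9 were among the 11244 genes that passed the filter on low values. Polyadenylated RNA was sequenced from 5 Control mice and 5 AdCKO mice, 1 library per mouse. AdCKO mice carry floxed alleles of Crls1, which encodes cardiolipin synthase, together with Adipoq-Cre, which is active in adipocytes but not in the other cells of the fat pad. Control mice carry the same floxed alleles and no Cre, and the labels call them wild-type. All the mice are C57BL/6 by their labels, were 20 weeks old and lived at room temperature.

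Iron-sulfur clusters are small inorganic cofactors that carry electrons in respiratory complexes I, II and III and complete a range of enzymes. Mitochondria make them from iron and from sulfur taken off cysteine, build them on a scaffold protein, hand them to carriers with the help of a chaperone, and deliver them to client proteins. The same iron is taken up through the transferrin receptor, kept in ferritin and released through ferroportin. Brown adipocytes are packed with mitochondria and use iron-sulfur proteins and heme proteins heavily in thermogenic respiration.

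Values are normalized reads per kb of counted exon, so levels can be compared between genes. Calls are genes whose limma adjusted p, on log2(value + 1), was under 0.01, and log2 fold changes are AdCKO over Control. Crls1 itself was between 813 and 1291 in Control and between 193 and 249 in AdCKO, with no overlap and a log2 fold change of -2.27. Summed over genes, normalized reads lay between 7615403 and 8171138 per Control library and between 5419800 and 5843024 per AdCKO library, and the sequencing depth before normalization is unknown. Forcing the same total on every library (equal library totals) took the median change of all tested genes, in log2, from -0.01 to 0.46, and the calls from 52.3% lower and 47.7% higher to 13.9% lower and 86.1% higher. Changes under that scaling are therefore given relative to 0.46 or are to be read beside it. Of all 11244 tested genes, that scaling called 1098 lower and 6811 higher, and counts under it are to be read beside these. Summed skeletal muscle markers were between 82.0 and 109 in Control, 128 in AdCKO 3 and 114 in AdCKO 5, but 5135 in AdCKO 1, 19274 in AdCKO 2 and 7460 in AdCKO 4. The main counts are therefore also given with AdCKO 3 and 5 alone, an alternative chosen after seeing the data.

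Of the 9 genes, 5 fell in AdCKO iBAT, and all 5 belong to the assembly machinery: Nfs1, Iscu, Isca1, Isca2 and Hscb. Their AdCKO means were between 54.8% and 67.7% of the Control means. Glrx5, the remaining assembly gene, had an AdCKO mean at 99.3% of Control and was not called. Tfrc rose to 133.6% of Control, and Fth1 and Slc40a1 were not called. Across all tested genes 28.0% were called lower and 25.6% higher, and 50.9% had groups that did not overlap. The median log2 fold change was -0.55 over the 9 genes and -0.01 over all tested genes. With AdCKO 3 and 5 alone the same 5 genes were called lower and Tfrc was not called (log2 fold change 0.48, limma adjusted p = 0.016).

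**Figure D1:**
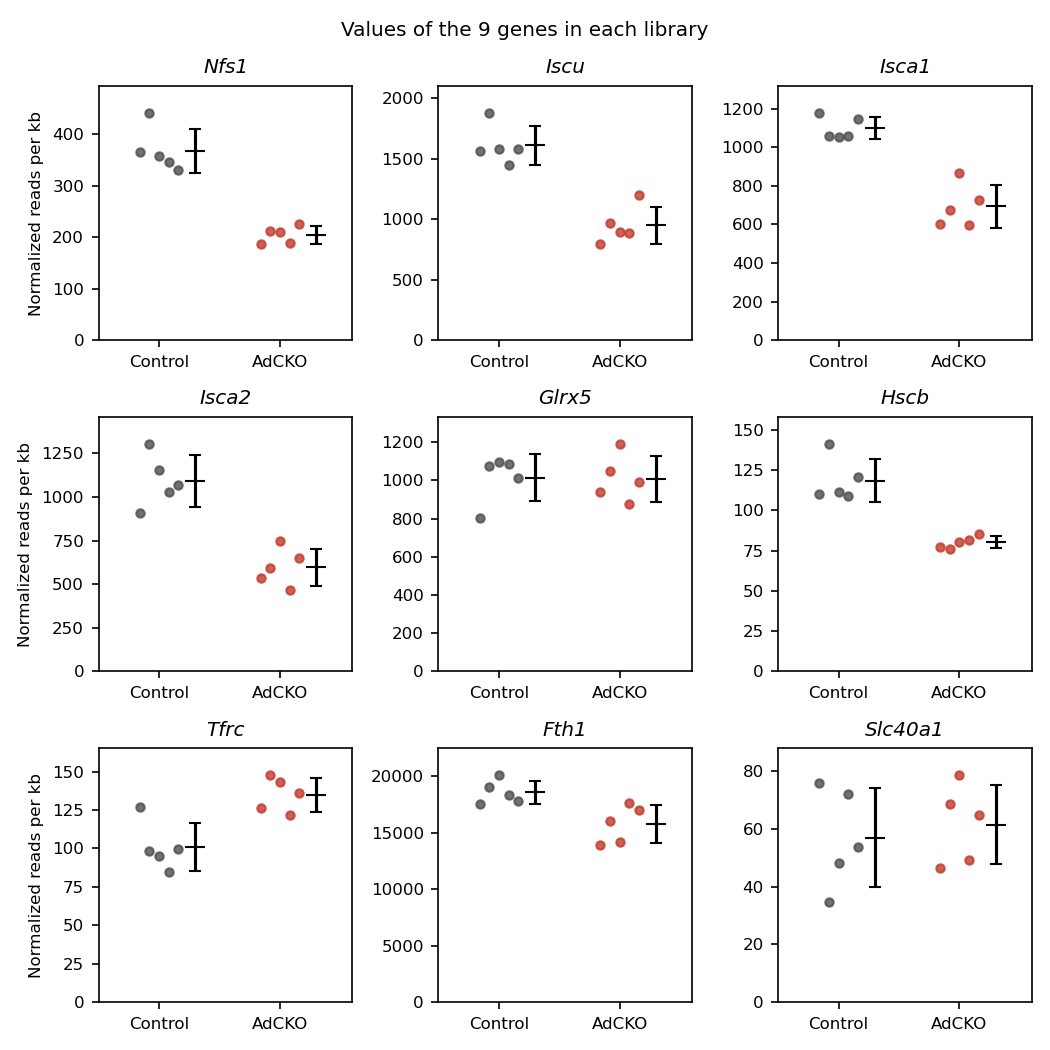
Normalized reads per kb (vertical axis, from 0) of the 9 genes in each of the 5 Control libraries (grey) and the 5 AdCKO libraries (red), with the mean and SD beside them. The groups are apart for Nfs1, Iscu, Isca1, Isca2 and Hscb, and they overlap for Glrx5, Tfrc, Fth1 and Slc40a1.

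Nfs1 is the cysteine desulfurase that supplies the sulfur. Its values in the 5 Control libraries were 366, 441, 357, 346 and 331 normalized reads per kb, against 186, 213, 210, 189 and 227 in AdCKO. Every AdCKO library lay well under the lowest Control library. The means were 368 ± 42.5 and 205 ± 17 (SD, n = 5 each, as for all means below), a change in log2 of -0.84 (adjusted p = 4.11e-06 by limma, SE 0.087).

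Iscu is the scaffold on which the cluster is built. It measured 1563, 1877, 1581, 1453 and 1585 in Control and 794, 974, 895, 888 and 1199 in AdCKO. AdCKO 5 stood above the other AdCKO libraries and still below every Control library. The means were 1612 ± 158 and 950 ± 153, a log2 fold change of -0.77 (adjusted p = 5.43e-05 by limma, SE 0.11). Within each library the log2 ratio of Nfs1 to Iscu was -2.13 ± 0.076 in Control and -2.20 ± 0.13 in AdCKO, a difference of -0.07 (SE 0.066, exact permutation test, p = 0.35). A difference between the falls in RNA of the desulfurase and its scaffold was thus not detected.

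Hscb is the co-chaperone that helps the cluster leave the scaffold. It was the least abundant assembly gene of the 6, at 110, 141, 111, 109 and 121 in Control and 77.1, 76.3, 80.6, 81.5 and 85.4 in AdCKO. The AdCKO libraries were close together, with a coefficient of variation of 4.6% against 11.3% in Control. The means were 119 ± 13.4 and 80.2 ± 3.66, a log2 fold change of -0.55 (adjusted p = 5.79e-05 by limma, SE 0.079).

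Glrx5 is the monothiol glutaredoxin that receives the new cluster from the chaperone system. Its values were 803, 1076, 1098, 1087 and 1011 in Control and 937, 1048, 1190, 877 and 990 in AdCKO, and the ranges lay over each other. The means were 1015 ± 123 and 1008 ± 119, a log2 fold change of -0.01 with a 95% interval from -0.24 to 0.22 (limma adjusted p = 0.95), which turned positive with equal library totals (0.47, or 0.01 above the median of all genes) and under quantile normalization (0.30). The fall of Hscb differed from the change of Glrx5 by a ratio that no common factor for a library can move. Their log2 ratio went from -3.10 ± 0.21 in Control to -3.65 ± 0.18 in AdCKO, a difference of -0.55 (SE 0.12, exact permutation test, p = 0.0079, adjusted p = 0.048 over 6 ratios), and the groups did not overlap. Without AdCKO 3, which has the highest Glrx5 value, the difference was -0.49 and its adjusted p was 0.071.

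Isca1 and Isca2 are partner proteins that act late, in the making of the larger clusters that lipoate synthase and complex I need. Isca1 was 1175, 1058, 1054, 1058 and 1146 in Control and 603, 676, 865, 598 and 725 in AdCKO. Isca2 was 906, 1301, 1153, 1028 and 1070 in Control and 536, 590, 745, 469 and 649 in AdCKO. Neither gene had an AdCKO library within its Control range. Isca1 went from 1098 ± 58.1 to 693 ± 109, a log2 fold change of -0.67 (adjusted p = 7.31e-05 by limma, SE 0.099). Isca2 went from 1092 ± 147 to 598 ± 106, a log2 fold change of -0.88 (adjusted p = 7.03e-05 by limma, SE 0.13). The log2 ratio of Isca1 to Isca2 was 0.02 ± 0.25 in Control and 0.22 ± 0.078 in AdCKO, a difference of 0.20 (SE 0.12, exact permutation test, p = 0.14, adjusted p = 0.29) that was called without Control 1 (0.29, adjusted p = 0.024).

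The 5 genes that fell did so unevenly across the AdCKO mice. As a mean over the 5 genes, in log2 units from the AdCKO mean, AdCKO 5 stood at 0.16 and AdCKO 3 at 0.13, AdCKO 2 at 0.00, AdCKO 4 at -0.14 and AdCKO 1 at -0.15. AdCKO 5 and AdCKO 3 are also the libraries with the lowest summed skeletal muscle markers of their group (114 and 128), slightly above the highest Control library (109), and the part of these markers in the result was not tested. In these 2 libraries alone the log2 fold changes against Control were -0.75 for Nfs1, -0.63 for Iscu, -0.47 for Isca1, -0.64 for Isca2 and -0.50 for Hscb, all called. Summed adipocyte markers, in the same order of libraries, were 160980, 141163, 153144, 138205 and 137429, so AdCKO 5 was highest in both and AdCKO 3 was below AdCKO 2. In Control the 5 genes were highest in Control 2 (0.19 above the group mean), which had the highest adipocyte sum too (249658), and lowest in Control 4 (-0.093), which had the second highest (231274). Fabp4 alone made up most of these sums, with a mean of 147241 out of 231438 in Control and 108235 out of 146184 in AdCKO.

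**Figure D2:**
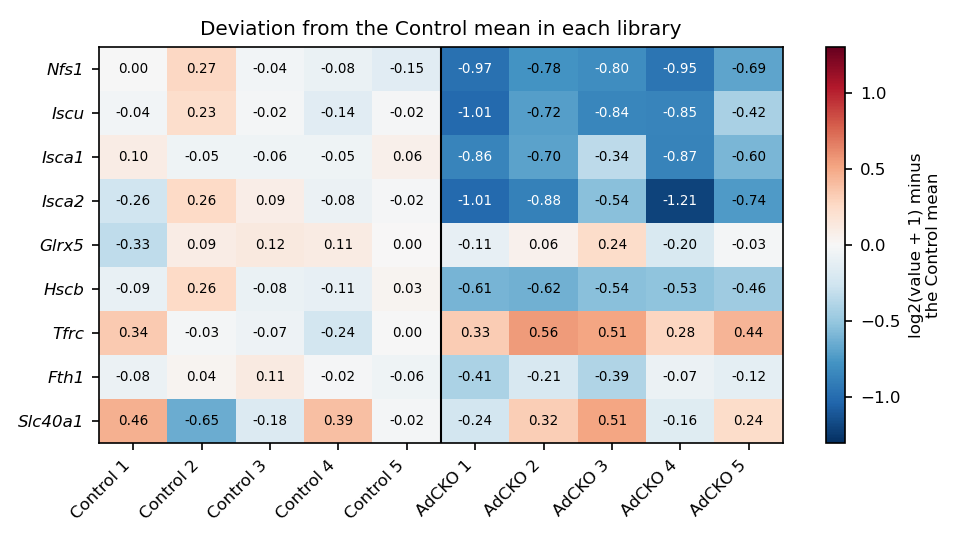
Difference between log2(value + 1) in a library and the mean of the 5 Control libraries, for the 9 genes (rows) in the 10 libraries (columns), on a colour scale from blue (below) to red (above). In the AdCKO columns Nfs1, Iscu, Isca1, Isca2 and Hscb are below 0 in every library, Tfrc is above 0 in every library and Glrx5 and Slc40a1 have both signs.

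Adipocyte markers fell together with these genes: 7 of 8 were called lower, with summed levels of 220546 to 249658 in Control and 137429 to 160980 in AdCKO. This fall depended on the scaling. Under quantile normalization Adipoq was at 0.29, Plin1 at 0.20 and Cidec at 0.18. Cidea, Ucp1, Lipe and Pparg stayed at -0.70, -0.40, -0.38 and -0.17. Quantile normalization gives a rank the same value in every library, which limits the change that a very abundant gene can show. Fabp4, the most abundant of the 8 markers, was thus held at -4.9e-16. With equal library totals the 8 markers lay between -1.15 and 0.039, each below the median of 0.46 for all genes. Macrophage markers rose, 11 of 12, from summed levels of 477 to 1297 up to 5945 to 7979, and so did 6 of 6 fibroblast markers, from 929 to 1260 up to 3423 to 4996. Lyz2 alone made up most of the macrophage sum, with a mean of 469 out of 725 in Control and 5196 out of 6814 in AdCKO. Summed endothelial markers were 1433 to 1798 in Control and 1471 to 1990 in AdCKO. In whole fat pads fewer cells of a type and less RNA per cell cannot be told apart. The part of these cell types in the fall of the assembly genes was not tested.

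Scaling mattered more than any single library for the number of genes called. With equal library totals Nfs1 was the only one of the 5 still called (-0.36, limma adjusted p = 0.0010), while Iscu at -0.29, Isca1 at -0.19, Isca2 at -0.39 and Hscb at -0.076 were not. Relative to the median of all genes under that scaling the 5 values were -0.82, -0.75, -0.65, -0.85 and -0.54. Under quantile normalization all 5 were called, at -0.70, -0.41, -0.40, -0.61 and -0.55.

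**Figure D3:**
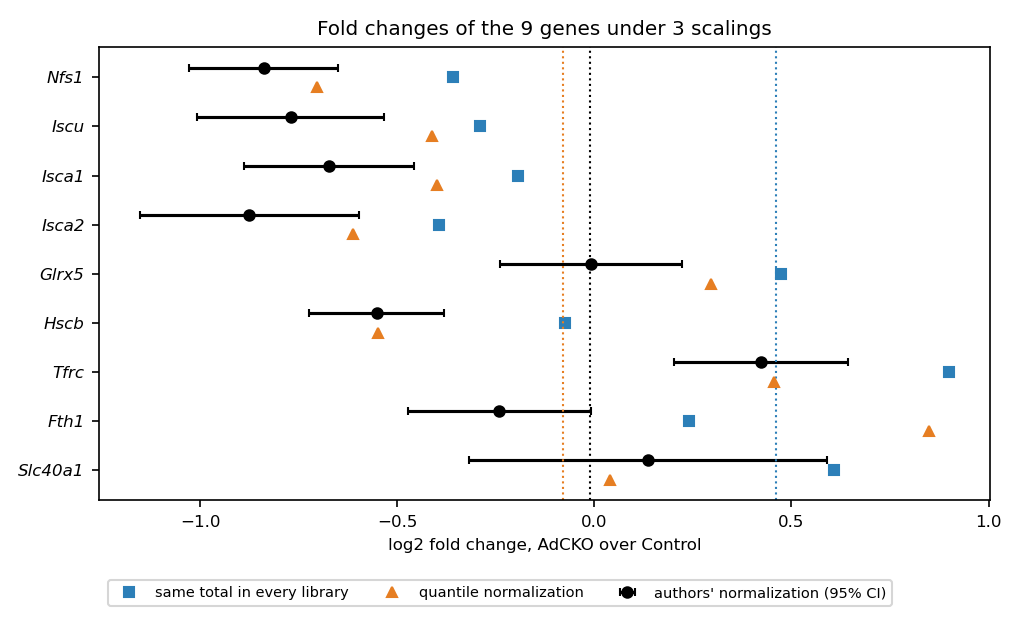
log2 fold change, AdCKO over Control, of the 9 genes with the authors' normalization (black, with 95% confidence interval), equal library totals (blue squares) and quantile normalization (orange triangles). Dotted lines mark the median of all tested genes under each scaling, at -0.01, 0.46 and -0.08; Fth1 and Glrx5 change sign between scalings, whereas Nfs1, Iscu, Isca1, Isca2 and Hscb lie left of the dotted line in all of them.

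Over 7 lists of other genes of iron-sulfur and iron metabolism, 34 of 82 tested genes were called lower and 15 higher. Their median log2 fold change was -0.11. Of all tested genes 28.0% were called lower and 25.6% higher, with a median of -0.01. Counts for single lists are to be read beside these shares. With AdCKO 3 and 5 alone 26 of the 82 were lower and 11 higher, against 2175 and 2104 of all 11244 tested genes. The rest of the mitochondrial assembly pathway was mixed. Of 14 further genes, 7 were called lower, 1 higher and 6 not called, with a median log2 fold change of -0.30 (0.18 with equal library totals, or -0.28 relative to all genes). Under equal library totals 4 were called lower and 6 higher, against 1098 and 6811 of all 11244 tested genes. Ndufab1, the mitochondrial acyl carrier protein that binds the desulfurase complex, fell from 2034 ± 175 to 952 ± 174 normalized reads per kb, a log2 fold change of -1.11 (adjusted p = 5.52e-06 by limma, SE 0.12). Nubpl, which serves the clusters of complex I, fell by 1.00 on the log2 scale, from 63.0 to 31.1. The late-acting factors Bola3 and Iba57 fell by 0.99 and 0.91. Fdxr, the ferredoxin reductase, went the other way, from 85.5 ± 11.7 to 148 ± 29.5, a log2 fold change of 0.76 (adjusted p = 0.00053 by limma, SE 0.14), with 1 AdCKO library inside the Control range. Lyrm4, the small partner that holds Nfs1 in its complex, was at 66.1 ± 5.22 and 74.5 ± 4.22 and was not called.

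Cytosolic assembly, which uses a sulfur product exported by mitochondria, was also mixed. Of its 11 genes 5 were called lower, 1 higher and 5 not called, against 28.0% lower and 25.6% higher of all tested genes. The median was -0.25 (0.23 with equal library totals, or -0.23 relative to all genes). With equal library totals limma called 0 lower (0 at an unadjusted p under 0.05) and 5 higher, against 1098 and 6811 of all 11244 tested genes. With AdCKO 3 and 5 alone 3 were lower. Nubp2, a scaffold, fell by 0.68 on the log2 scale. The targeting factors Narfl and Fam96a fell by 0.51 and 0.48. Bola2, a partner of cytosolic glutaredoxin, rose from 223 ± 21.5 to 356 ± 27.7, a change in log2 of 0.67 (adjusted p = 1.53e-05 by limma, SE 0.082), and its groups did not overlap.

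The genes for mitochondrial proteins that receive the clusters fell in RNA level as a whole list. All 13 were called lower, with log2 fold changes from -1.60 to -0.65 and a median of -1.11 (10 of 13 called lower both with equal library totals and under quantile normalization, 12 of 13 with AdCKO 3 and 5 alone, and none higher in any of these). Ndufv1, the subunit of complex I that holds the first cluster beside the flavin, went from 4712 ± 96.7 to 1572 ± 298 (log2 fold change -1.60, adjusted p = 1.45e-07 by limma). Etfdh, which passes electrons from fatty acid oxidation to ubiquinone, fell by 1.52 on the log2 scale, and Ndufs1 of complex I by 1.28. Cisd1, a cluster protein of the outer membrane, went from 1325 to 653. The median of these clients was further below 0 than that of the 9 genes, and the 2 medians were not compared by a test.

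Of 16 tested genes for iron-sulfur proteins outside mitochondria, 4 were called lower, 4 higher and 8 not called. Among all tested genes 28.0% were called lower and 25.6% higher. The median of the list was 0.06 (-0.16 under quantile normalization). Equal library totals gave 3 lower and 10 higher, against 1098 and 6811 of all 11244 tested genes. The 4 higher became 2 without Control 4, AdCKO 1 or AdCKO 4, under the replicate block and with AdCKO 3 and 5 alone. The falling ones were Dpyd and Aox1, enzymes of pyrimidine and aldehyde breakdown, Aco1, and Cisd2. With equal library totals Cisd2 stood at 0.047, beside a median of 0.46 for all genes. The rising ones, Dna2, Pold1, Prim2 and Abce1, serve DNA replication or ribosome recycling. Under quantile normalization Pold1 stood at -0.0049 and Prim2 at 0.039. Dna2 was low, between 5.19 and 5.97 in Control and between 8.60 and 11.6 in AdCKO. Prim2 and Pold1 had Control means of 12.3 and 16.8, near the filter of 10, and the groups of Prim2 overlapped. Aco1, whose protein is cytosolic aconitase with a cluster and iron regulatory protein 1 without it, was between 513 and 679 in Control and between 269 and 287 in AdCKO, a change in log2 of -1.07 (adjusted p = 2.68e-07 by limma, SE 0.079).

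**Figure D4:**
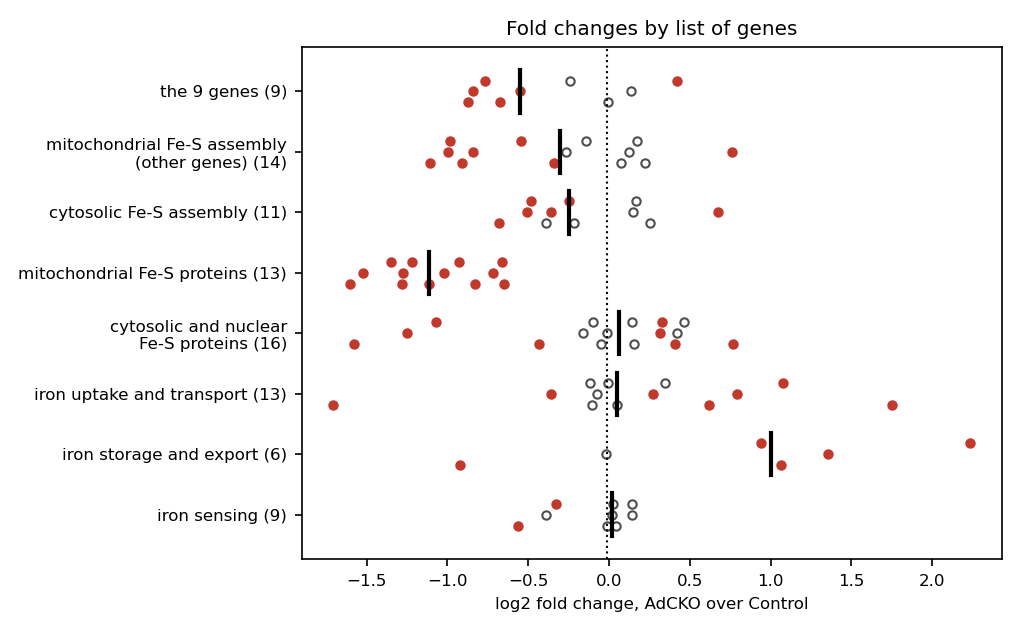
log2 fold change, AdCKO over Control, of the 9 genes and of the tested genes of 7 pathway lists, 1 point per gene, filled where called (limma adjusted p under 0.01) and open where not, with the list's median as a bar and the median of all tested genes as a dotted line. All 13 genes for mitochondrial iron-sulfur proteins lie between -1.60 and -0.65, and 4 of 6 genes of iron storage and export lie between 0.94 and 2.24.

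Iron handling is set in part after transcription. Iron regulatory proteins bind a hairpin, the iron-responsive element, when iron is low: in a 5′ UTR this blocks translation, as in ferritin and ferroportin, and in the 3′ UTR of Tfrc it protects the mRNA from decay. RNA levels thus report on Tfrc regulation of this kind more directly than on ferritin. The elements were searched for in the annotated UTRs as C, any 5 bases, CAGTGN, and 5 bases that pair with the first 5, on the transcript strand, with 29 bases taken in all. A match is a description of letters only. Tfrc held 4 matches in its 3′ UTR, and Fth1 and Slc40a1 held 1 each in the 5′ UTR. No match was found in the UTRs of Nfs1, Iscu, Isca1, Isca2, Glrx5 or Hscb. The elements of Tfrc and Fth1 are shown because they are where the 2 genes differ, repeated at the end of one mRNA and single at the start of the other. Capitals mark the bulged C and the loop. On mm9, plus strand, they lie at chr16:32631305-32631333, chr16:32631684-32631712, chr16:32631749-32631777 and chr16:32631796-32631824 for Tfrc and at chr19:10057222-10057250 for Fth1.
Tfrc element 1: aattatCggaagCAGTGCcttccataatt
Tfrc element 2: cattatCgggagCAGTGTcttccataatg
Tfrc element 3: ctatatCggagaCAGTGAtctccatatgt
Tfrc element 4: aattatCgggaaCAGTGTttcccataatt
Fth1 element: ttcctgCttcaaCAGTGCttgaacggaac
Among 19525 genes with an annotated transcript holding both UTRs, 18 (0.092%) had a match in the 5′ UTR and 106 (0.543%) in the 3′ UTR. Tfrc was the only gene with 2 or more in the 3′ UTR.

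Tfrc is the transferrin receptor, the main entry of iron into most cells. Its values were 127, 98.1, 95.3, 84.7 and 99.8 in Control and 126, 148, 143, 122 and 136 in AdCKO. Control 1 was above 2 of the AdCKO libraries, and the other 4 Control libraries were below all of them. The means were 101 ± 15.7 and 135 ± 11, a log2 fold change of 0.42 (adjusted p = 0.0028 by limma, SE 0.10, with p = 0.024 in the exact permutation test).

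Fth1 encodes the heavy chain of ferritin, which oxidizes iron for storage, and was by far the most abundant of the 9 genes. It measured 17599, 19071, 20101, 18311 and 17834 in Control and 13932, 16064, 14170, 17652 and 17024 in AdCKO. Only AdCKO 4 reached into the Control range. The means were 18583 ± 1018 and 15769 ± 1668. The log2 fold change of -0.24 (95% interval -0.47 to -0.01) was not called (limma adjusted p = 0.063, exact permutation test, p = 0.016). Its sign depended on the scaling, with 0.24 for equal library totals (-0.22 relative to all genes, limma adjusted p = 0.040) and 0.85 under quantile normalization, where Fth1 was called higher (limma adjusted p = 3.2e-06). Quantile normalization gives a rank the same value in every library. The 0.85 thus compares the rank of Fth1, at the 99.9 percentile in Control, rather than its level.

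Slc40a1 encodes ferroportin, the iron exporter, and was the least abundant of the 9 genes. It was 75.7, 34.6, 48.2, 71.9 and 53.8 in Control and 46.3, 68.3, 78.4, 49.0 and 64.8 in AdCKO, and the ranges largely coincided. The means were 56.8 ± 17.1 and 61.4 ± 13.5, a log2 fold change of 0.14 with a 95% interval from -0.32 to 0.59 (limma adjusted p = 0.59). Leaving out Control 2, the lowest library, turned it to -0.03. Its coefficient of variation, 30.0% in Control and 22.0% in AdCKO, was the widest of the 9 genes, so a change of the size seen for Tfrc would lie within the interval. Macrophages, which export iron through ferroportin, had markers that were several times higher in AdCKO (above), and their part in the Slc40a1 level was not tested.

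Ratios within a library put uptake, storage and export side by side. The log2 ratio of Tfrc to Fth1 rose from -7.53 ± 0.26 in Control to -6.87 ± 0.21 in AdCKO, a difference of 0.67 (SE 0.15, exact permutation test, p = 0.016, adjusted p = 0.048 over 6 ratios), with Control 1 at -7.11 above AdCKO 4 at -7.18. With 1 library left out the difference stayed between 0.61 and 0.77. Its adjusted p was then 0.071 without any 1 of Control 2, 3, 4 or 5 or AdCKO 1, 2, 3 or 5. Slc40a1 against Fth1 differed by 0.38 (SE 0.28, exact permutation test, p = 0.24) and Tfrc against Slc40a1 by 0.29 (SE 0.23, exact permutation test, p = 0.24), and neither passed the threshold.

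**Figure D5:**
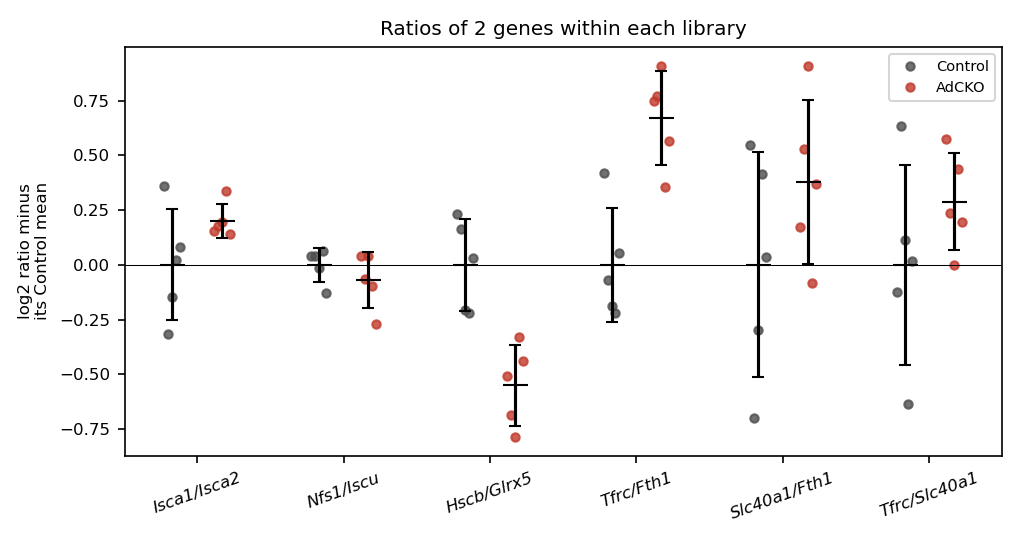
log2 ratio of 2 genes within each library, minus the mean of that ratio in Control, for 6 ratios in the 5 Control (grey) and 5 AdCKO (red) libraries, with mean and SD. The groups are apart for Hscb/Glrx5, overlap in 1 library of each group for Tfrc/Fth1, and overlap widely for the other 4 ratios.

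Genes of iron uptake and of iron transport within the cell, other than Tfrc, moved both ways. Of 13 tested, 5 were called higher, 2 lower and 6 not called, against 25.6% higher and 28.0% lower of all tested genes. The median was 0.05. Equal library totals gave 10 higher and 1 lower, against 6811 and 1098 of all 11244 tested genes. The median was then 0.53 (0.071 above that of all genes). The 2 lower became 1 without the filter on low values, and when Control 2, 3 or 4 or AdCKO 1, 4 or 5 was left out. With AdCKO 3 and 5 alone 3 were higher and 1 lower. Trf, which encodes transferrin, rose from 260 ± 90.4 to 862 ± 199, a change in log2 of 1.75 (adjusted p = 2.41e-05 by limma, SE 0.23). Scara5, a ferritin receptor, rose by 1.08 on the log2 scale and Steap3, the endosomal iron reductase, by 0.79. Tfr2, the second transferrin receptor, was between 28.9 and 55.1 in Control and between 10.9 and 12.8 in AdCKO, a change in log2 of -1.71 (adjusted p = 1.99e-06 by limma, SE 0.16). The RNA levels of the 2 transferrin receptors thus moved in opposite directions. Slc11a2, the endosomal iron transporter, fell by 0.36 on the log2 scale. With equal library totals it stood at 0.11, beside a median of 0.46 for all genes.

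Storage and export genes other than Fth1 and Slc40a1 were mostly higher: of 6 tested, 4 were called higher, 1 lower and 1 not called. Of all tested genes 25.6% were called higher and 28.0% lower. The median of the list was 1.00. Hmox1, the heme oxygenase that frees iron from heme, rose from 117 ± 43.6 to 539 ± 110, a change in log2 of 2.24 (adjusted p = 2.45e-06 by limma, SE 0.22). The ferroxidases Heph and Cp rose by 1.06 and 0.94 on the log2 scale. Ncoa4, the receptor that takes ferritin to the lysosome, fell from 301 ± 35.2 to 158 ± 8.73. Ftl1, the light chain of ferritin, rose from 4696 ± 1006 to 11879 ± 1355, a change in log2 of 1.36 (adjusted p = 6.88e-06 by limma, SE 0.15), while its partner Fth1 was not called. In the 5 Control libraries Ftl1 was 19.4%, 30.4%, 27.8%, 25.2% and 22.7% of Fth1, and in the 5 AdCKO libraries 84.8%, 85.0%, 82.0%, 70.2% and 58.2%. This ratio was chosen after its values were seen and was not tested. Ftl1 has 4 near-identical copies elsewhere in mm9 (97.4% to 99.5% identity), so its reads may be shared with them. Summed macrophage markers were higher in the same AdCKO libraries, and their part in the rise of Ftl1, Hmox1 and Trf was not tested.

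Of 9 genes listed under iron sensing, not all of them sensors themselves, 2 were called lower and 7 were not called. The share called lower among all tested genes was 28.0%. Epas1 fell by 0.57 and Bmp6 by 0.33 on the log2 scale. With equal library totals they stood at -0.084 and 0.14, beside a median of 0.46 for all genes. The median of the list was 0.02 (-0.088 under quantile normalization). With equal library totals limma called 0 lower (0 at an unadjusted p under 0.05) and 6 higher, against 1098 and 6811 of all 11244 tested genes. The 2 lower became 1 under quantile normalization, without Control 4 or AdCKO 1, 2 or 4 and with AdCKO 3 and 5 alone. Ireb2, which encodes iron regulatory protein 2, was at 61.5 ± 3.43 and 61.2 ± 5.70. Fbxl5, which marks that protein for destruction when iron is present, was at 119 ± 7.44 and 132 ± 7.99 and was not called. Alas2, an erythroid enzyme with an iron-responsive element, was between 31.8 and 70.5 in Control and between 23.5 and 33.8 in AdCKO and was not called. The other erythroid markers in the table, Slc4a1 and Epb4.2, had means of at most 0.50 in either group. Of the 13 tested genes with a 5′ UTR match, 3 were called lower and 2 higher (median 0.04). Of the 79 with a 3′ UTR match, 24 were lower and 19 higher (median -0.01). Among all tested genes 28.0% were called lower and 25.6% higher, with a median of -0.01.

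In Control the 9 genes fell into a clear order: Fth1, then Iscu, then Isca1, Isca2 and Glrx5, whose neighbouring ranges overlapped, then Nfs1, then Hscb and Tfrc, which overlapped, and then Slc40a1. In AdCKO Glrx5 came second, with Iscu, Isca1 and Isca2 behind it and each range overlapping the next. Nfs1 followed, and Tfrc now lay above Hscb with no overlap. Hscb and Slc40a1 overlapped at the low end. In Control the levels stood between the 44.8 percentile of all tested genes, for Slc40a1, and the 99.9 percentile, for Fth1.

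The genes whose profile over the 10 libraries lay nearest to that of Nfs1, by Euclidean distance of log2 values from their Control mean, were Mrps35 (0.23), Fnta (0.23) and Cyp27a1 (0.25). Nkrf (0.27), Rnf111 (0.32) and Cpsf6 (0.33) were nearest to Tfrc. For Fth1 they were 2610015P09Rik (0.21), Chmp2a (0.24) and Psmc3 (0.24), and for Slc40a1 Arl6ip6 (0.55), Fnip1 (0.56) and Rnmt (0.64). The distances were largest for Slc40a1, whose libraries scattered most.

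On mm9 the 9 genes are spread over 7 chromosomes, as the table of all genes places them. Nfs1 is at chr2:155949373-155969922 (minus strand, 13 exons) and shares 148 exon bases with Romo1 on the opposite strand, so reads there cannot be told apart without strand. Iscu is at chr5:114222821-114228291 (plus, 5 exons) and Hscb at chr5:111258089-111268796 (minus, 6 exons). Isca1 is at chr13:59856776-59871150 (minus, 4 exons), Isca2 at chr12:86114220-86116039 (plus, 4 exons) and Glrx5 at chr12:106270899-106279120 (plus, 2 exons). Tfrc is at chr16:32608982-32632880 (plus, 19 exons), Fth1 at chr19:10057136-10059601 (plus, 4 exons) and Slc40a1 at chr1:45964915-45982439 (minus, 8 exons). Iscu and Isca1 each have 1 near-identical copy elsewhere (98.5% and 98.9% identity), which could share reads with them, and the other 7 have none at 95% identity over 50% of the transcript.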

How the data were processed

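RNA of iBAT from 5 Control and 5 AdCKO mice was analysed, grouped by sample title. Upstream, the authors aligned to mm9 (STAR), counted on exons (iRNA-seq), applied DESeq2 normalization and divided by the exon length. The deposited values are thus a signal in normalized reads per kb, not counts. None is 0, and the step that moderates them is not given in the sources used here. The deposited fold changes, adjusted p-values and gene lists of the authors were not used.

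Genes whose mean reached 10 in Control or AdCKO (11244) were compared on log2(value + 1) with limma 3.58.1 in R 4.3.3 (intensity trend, two-sided, Benjamini-Hochberg adjustment, threshold 0.01), a scale that understates changes of low genes. The script was tested on simulated data. Single values and 6 ratios within a library were put to an exact permutation test, two-sided (252 splits, smallest p 0.0079), adjusted over the 6 ratios at a threshold of 0.05. Precision is the spread between 5 mice. Elements and exons came from GENCODE transcripts on NCBIM37 (mm9), and copies from blastn 2.17.0+.

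The 9 genes and the lists were chosen with earlier results of these data known. Named are the 9 genes, Crls1, at most 4 genes per list with the smallest p, called genes against their list's majority, and the 3 profiles nearest to Nfs1, Tfrc, Fth1 and Slc40a1. Outside this rule Adipoq, Cidec, Fabp4, Pparg, Lyrm4, Cisd2, Pold1, Prim2, Abce1, Cp, Ireb2, Slc4a1 and Epb4.2 were added with their values already seen. The alternatives were other pseudocounts and filters, 2 other scalings, other limma settings, the replicate number as a block and each library left out.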

Additional observations from a re-analysis of the deposited data

Results flagged for a closer look

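Among the 5 AdCKO libraries the log2 ratio of Isca1 to Isca2 stood apart in AdCKO 4, at 0.35 against 0.16 to 0.21 in the other AdCKO libraries. Its gap to the next library was 0.718 of the group's range, past Dixon's 95% critical value for 5 samples. Of 34 groups of 5 values examined in this way it was the only one past that value, which chance alone exceeds in about 5% of groups.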

How the results depend on the processing

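With equal library totals, 1 of the 9 genes was called lower and 2 higher, against 5 and 1 with the authors' normalization, and the other pathway genes gave 19 lower and 42 higher, against 34 and 15. That scaling called 1098 of all 11244 tested genes lower and 6811 higher. Iscu (-0.29), Isca1 (-0.19), Isca2 (-0.39) and Hscb (-0.076) then missed the threshold, and Glrx5 (0.47) and Fth1 (0.24) turned positive, all beside a median of 0.46 for all genes. Quantile normalization, which compares ranks between libraries, called 2 of the 9 genes higher and turned Glrx5 to 0.30 and Fth1 to 0.85. With AdCKO 3 and 5 only, chosen after seeing the data, limma called 0 of the 9 genes higher (1 at an unadjusted p under 0.05), with Tfrc at 0.48 (adjusted p = 0.016), and Glrx5 stood at 0.11. Leaving out 1 library at a time, the log2 fold change ran from -0.090 to 0.040 for Glrx5 and from -0.027 to 0.25 for Slc40a1, and the log2 ratios from 0.12 to 0.29 for Isca1/Isca2, 0.61 to 0.77 for Tfrc/Fth1 and -0.60 to -0.49 for Hscb/Glrx5. The cause of these changes was not tested. Nfs1 was called lower under every alternative, from -0.88 to -0.36. Same-numbered libraries correlated from -0.27 to 0.098 in their deviations from the group means. No pairing by replicate number was seen, but these correlations cannot exclude it. As a replicate block, the replicate number kept 5 of the 9 genes lower and 1 higher (Tfrc, limma adjusted p = 0.0067) and changed no call among them. Planned count tests (edgeR, DESeq2) were not run, because whole reads could not be recovered from the deposited values. The depth of the libraries is unknown.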
